A study of Mus musculus with 20 samples.

Results

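Keratin-associated proteins are the cross-linked matrix of the hair shaft, and their genes were followed here in single cells of mouse dorsal skin in anagen, when follicles are growing hair. The deposited gene table held 57 rows whose symbol begins with Krtap and a number, out of 31055 features, and the 32 with at least 10 UMIs (counted RNA molecules) over both matrices are the members described. The other 25 fell short, and 11 of those had no UMI at all. The weakest member had 12 UMIs and the strongest row that was left out, Krtap19-4, had 9. The choice used the sum over both libraries and no contrast between them.

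The Mutant group comprised 16 listed samples from mice that carried Nfatc1-CreER, R26R and mTmG and were also Fgf5-/-, with tamoxifen for 3 days from postnatal day 23 or 24. The Control group comprised 4 listed samples with the same transgenes and no Fgf5 deletion, and tamoxifen for 3 days from postnatal day 21 or 22. Nfatc1-CreER is a tamoxifen-dependent recombinase under control of Nfatc1, a gene of bulge stem cells, and mTmG marks recombined cells with a green membrane protein, so both groups carried the driver, the reporter and the drug. The deleted gene, Fgf5, codes for a growth factor known for its part in ending anagen. Each group was deposited as 1 pooled matrix of 10x Genomics 3' v3 counts. The start of treatment differed with genotype, and no age at harvest is stated in the labels. Group, treatment start and library therefore cannot be told apart. There is 1 value per group, no test was made, and every interval below covers counting error only.

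Hair keratins fill the cells of the shaft as intermediate filaments, and keratin-associated proteins are packed between these filaments and bound to them through disulfide bridges as the cells harden. By amino acid content the family is divided into high glycine-tyrosine, high sulfur and ultra-high sulfur proteins. Their genes are small, are clustered by chromosome and are known to be switched on late, mostly in the cortex, which forms the bulk of the shaft, and in part in the cuticle that covers it. The medulla is the central column of the shaft, and matrix and precortex cells are the dividing and early precursors in the hair bulb.

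The members lay in 2 large clusters and at 1 further locus. Chromosome 16 held 18 members between positions 88610705 and 89571183, chromosome 11 held 13 between 99550130 and 99993994, and chromosome 10 held Krtap12-1, which lies within Tspear (GENCODE vM21 on GRCm38). None of the 7 rows on chromosomes 1 and 7 passed. Every member has a form with a single exon. Protein classes were set by subfamily number, and by codons only for Krtap16-3. This gave 12 high glycine-tyrosine members with a median of 62.8% glycine and tyrosine codons. A further 12 were high sulfur with a median of 16.1% cysteine codons, and 8 ultra-high sulfur with a median of 36.3%. Codons do not part these classes cleanly. Krtap15, counted as high sulfur, has 4% cysteine codons, and Krtap7-1, counted as high glycine-tyrosine, has 29.9% glycine and tyrosine codons. Krtap16-3 is high sulfur by its number, but 59.3% of its codons encode glycine or tyrosine, and it is counted with the high glycine-tyrosine genes. Krtap14 and Krtap15 overlap on opposite strands, and Krtap15 shares its 3' end with 4930553J12Rik, so the counts of this pair are uncertain.

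The members resemble each other just before their start sites, a feature the choice did not use. RefSeq gave a promoter for 29 of the 32 members, and Krtap1-3, Krtap12-1 and Krtap7-1 had none in the table. The letters TATAAA stood on the sense strand within 250 bases before the start in 23 of 29 members (79.3%), against 7.59% of 32851 promoters of the same length. Either TATAAA or TATATAA began 45 to 20 bases before the start in 20 of 29 (69.0%), against 2.45% of all promoters. The letters CTTTGNT on either strand were found in 7 of 29 members (24.1%) and 15.98% of all. A match is a description of letters and not a measured site. No TATAAA stood within 250 bases in Krtap14, Krtap15, Krtap3-3, Krtap19-1, Krtap19-2 and Krtap19-3, and some of these also have large ratios below. Krtap13-1 and Krtap19-5 were among the members with no match 45 to 20 bases before the start. The 60 bases before the RefSeq start are shown for selected members that hold TATAAA, in capitals. They follow GRCm38.p6, all on the minus strand, written 5′ to 3′ along the gene. Shown are the abundant Krtap8-1 and Krtap11-1, the genes with large ratios Krtap16-3, Krtap22-2, Krtap6-5, Krtap3-1 and Krtap9-3, and the cuticle genes Krtap17-1 and Krtap24-1. Their positions are chr16:89487953-89488012, chr16:89571184-89571243, chr16:88962874-88962933, chr16:89010760-89010819, chr16:89047900-89047959, chr11:99566631-99566690, chr11:99598107-99598166, chr11:99993995-99994054 and chr16:88612280-88612339, in this order.
Krtap8-1: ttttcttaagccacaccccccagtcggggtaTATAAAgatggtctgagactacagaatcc
Krtap11-1: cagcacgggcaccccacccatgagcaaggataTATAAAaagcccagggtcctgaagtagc
Krtap16-3: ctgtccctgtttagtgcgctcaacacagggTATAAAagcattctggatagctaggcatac
Krtap22-2: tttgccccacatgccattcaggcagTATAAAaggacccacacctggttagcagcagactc
Krtap6-5: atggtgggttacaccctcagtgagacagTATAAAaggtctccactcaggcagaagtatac
Krtap3-1: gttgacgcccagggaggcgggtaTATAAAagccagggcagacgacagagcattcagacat
Krtap9-3: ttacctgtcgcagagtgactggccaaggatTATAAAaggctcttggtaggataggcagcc
Krtap17-1: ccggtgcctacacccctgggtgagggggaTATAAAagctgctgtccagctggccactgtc
Krtap24-1: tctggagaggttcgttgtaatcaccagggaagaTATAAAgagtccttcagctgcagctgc
In these windows the first T of TATAAA lies between 37 and 27 bases before the start, farthest in Krtap3-1 and nearest in Krtap24-1.

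After filtering, 11043 Mutant cells with 88185821 UMIs and 13640 Control cells with 128858259 UMIs remained, with medians of 6000 and 5569 UMIs per cell. The median mitochondrial share was 4.92% in Mutant cells and 3.21% in Control cells. Fgf5 itself had 863 UMIs in the Mutant library (8.82 CPM) and 1631 UMIs in the Control library (11.6 CPM) over all barcodes. The deleted part of the gene is not given in the sources used here, and a 3' count outside it would not show the deletion, so Fgf5 UMIs do not check the genotype label. The matrices shared 59 barcodes, and none of these was in the cortex-like classes. Clusters were formed without any gene of a Krtap symbol, so the members did not choose the classes. Genes of the same chromosome clusters without such a symbol were not left out, and Gm10229 is a leading gene of the Krt81-high cluster. Of the 10 cortex markers, 10 were detected in each library in both cortex-like clusters, which are told apart here by their leading keratins: Krt81-high (29 Mutant and 26 Control cells) and Krt35-high (80 and 190 cells). In the Krt35-high cells the cortex markers summed to 5743 CPM in Mutant and 7299 CPM in Control. The matrix and precortex markers, Krt35 among them, summed to more, 7229 and 8976 CPM. The name thus does not part this class cleanly from precortex cells. At a higher clustering resolution it shrank to 43 Mutant and 96 Control cells. The other hair shaft classes were cuticle-like (96 and 102 cells), medulla-like (277 and 145 cells) and matrix or precortex-like (845 and 486 cells). Every class value below is a sum over the cells of 1 library.

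Krtap RNA was concentrated in few cells. Over all kept cells the members summed to 1073 CPM (UMIs per 1000000 UMIs of the cells summed) in the Mutant library and 960 CPM in the Control library (log2 ratio 0.16, 95% interval 0.15 to 0.17). The cortex-like classes held 90.6% of the Mutant and 88.3% of the Control Krtap UMIs. The 29 Mutant Krt81-high cells alone held 81.6%, against 54.1% in the 26 Control Krt81-high cells. In these cells Krtap genes summed to 113491 CPM in Mutant and 89788 CPM in Control (0.34), and their share of a cell's UMIs ran from 3.24% over a median of 10.3% to 33.3% in Mutant and from 3.78% over 8.59% to 15.4% in Control. The ranges overlap, and 1 Mutant cell reached a share that no Control cell approached.

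**Figure D1:**
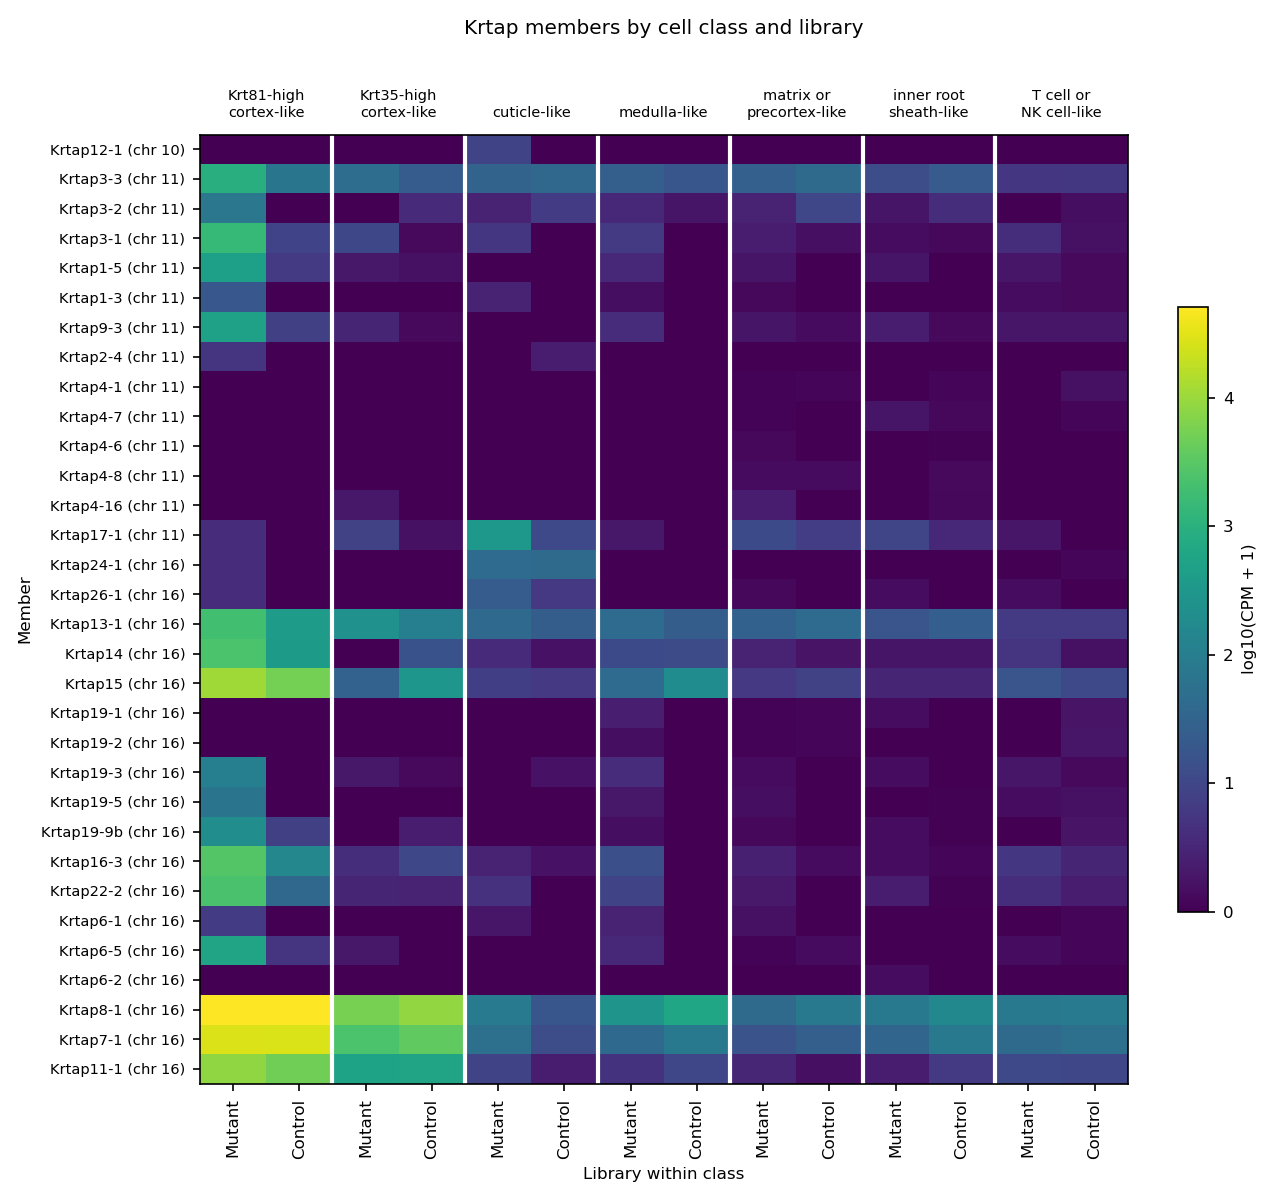
Levels of the 32 members, ordered by chromosome and position, as log10(CPM + 1) in 7 cell classes, with the Mutant library left of the Control library in each class. The brightest column pair is Krt81-high cortex-like, where Krtap8-1 reaches 51404 CPM in Mutant and 50275 CPM in Control, and Krtap17-1 and Krtap24-1 are brightest in the cuticle-like columns.

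Levels were lower in the other classes, and in the non-cortical ones far lower. Summed members were at 8964 CPM in Mutant and 13319 CPM in Control Krt35-high cells. They were at 641 and 163 CPM in cuticle-like cells, at 485 and 925 CPM in medulla-like cells, and at 143 and 216 CPM in matrix or precortex-like cells. Lymphocytes (the clusters named T cell or NK cell-like), which should lack these genes, were at 178 CPM in Mutant and 177 CPM in Control, with medians of 1929 and 2257 UMIs per cell. The summed matrix values of both libraries and the Control cuticle sum were thus near or below the lymphocyte level in CPM, but their make-up differed from it. These cells were also deeper, with medians of 9138 and 9490 UMIs in matrix and 12190.5 in Control cuticle-like cells, so CPM does not compare counts per cell. Krtap3-3 and Krtap24-1 made up 22.9% and 25.6% of the Krtap UMIs in Control cuticle-like cells, and Krtap24-1 stood at 41.5 CPM there, against 0.159 CPM in Control lymphocytes.

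In the Krt81-high cells the same few genes dominated both libraries, and the less abundant members were higher in Mutant. Of 17 members with at least 20 UMIs over both libraries in this class, 14 rose in Mutant and none fell. A gene is said to rise or fall where its ratio is at least 2-fold and the nearer bound of its interval lies beyond 1.5-fold. Over the 4259 genes compared in the class, 3.4% rose and 3.47% fell by this rule. With 0.5 UMI added to each count, as in all medians over genes, the median log2 ratio was 4.79 over the 17 members, or 4.19 with the 3 genes that had no Control UMI set at their lower bound, and -0.25 over all genes compared. The 3 that did not rise were the most abundant high glycine-tyrosine genes, Krtap8-1 and Krtap7-1, and the high sulfur gene Krtap11-1. The count of 14 rested on 1 library per group and, as given below, largely on the Mutant cells with most late keratin. It also drew on members that reached 20 UMIs only through Mutant: Krtap3-1, Krtap3-2, Krtap1-5, Krtap9-3, Krtap6-5, Krtap19-3, Krtap19-5 and Krtap19-9b. With at most 6 Control UMIs each, these could not have been called lower, and they raise the median. Of members with at least 20 Control UMIs, Krtap3-3, Krtap13-1, Krtap14, Krtap15, Krtap16-3 and Krtap22-2 rose.

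Krtap8-1 (ENSMUSG00000059632, chr16:89487379-89487952, minus strand) encodes a short high glycine-tyrosine protein and was the strongest member in both libraries. Its UMIs per cell ran from 206 over a median of 938 to 3948 in the 29 Mutant cells, and from 72 over 1526.5 to 4072 in the 26 Control cells. Every cell of both libraries held it and the ranges overlap almost fully. Summed, it stood at 51404 CPM in Mutant and 50275 CPM in Control, a log2 ratio of 0.03 (0.01 to 0.05). Krtap7-1 (ENSMUSG00000056706, chr16:89507703-89508323, minus strand), of the same protein class, was likewise present in every cell, at 28739 CPM in Mutant and 28256 CPM in Control (0.02, -0.00 to 0.05). Together with the 10 rarer high glycine-tyrosine genes they gave 86286 CPM in Mutant and 78733 CPM in Control. Krtap8-1 made up 45.3% of the Mutant and 56.0% of the Control Krtap UMIs in this class, and Krtap7-1 25.3% and 31.5%.

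The remaining members together came to 33348 CPM in Mutant and 11256 CPM in Control, a log2 ratio of 1.57. They held 29.4% of the Mutant Krtap UMIs of the class and 12.54% of those in Control. By protein class the high sulfur genes stood at 26707 CPM in Mutant and 11048 CPM in Control (1.27), and the ultra-high sulfur genes at 497 and 6.70 CPM (6.21). The ultra-high sulfur sum was almost wholly 1 gene, Krtap9-3, at 494 CPM in Mutant and 6.70 CPM in Control. Of the other ultra-high sulfur members only Krtap17-1 had any UMI in the class. By chromosome, the members on 11 rose together to 3439 CPM in Mutant, against 87.2 CPM in Control (5.30, 4.95 to 5.68). Those on 16 stood at 110052 CPM in Mutant and 89701 CPM in Control (0.29), a sum dominated by Krtap8-1 and Krtap7-1.

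Among the high sulfur genes of chromosome 16, the cells of both libraries overlapped and the Mutant sums were higher. Krtap15 (ENSMUSG00000022931, chr16:88820215-88829844, plus strand) had a median of 44 and a maximum of 1712 UMIs per cell in Mutant and a median of 30 and a maximum of 1060 in Control. It stood at 10904 CPM in Mutant and 5292 CPM in Control (1.04, 0.99 to 1.10), in 21 of 29 and 23 of 26 cells. So it was found in fewer Mutant cells and at higher sums. Krtap14 rose to 2383 CPM in Mutant, against 361 CPM in Control (2.72, 2.54 to 2.91), with maxima of 492 and 116 UMIs per cell. Krtap13-1 rose to 1943 CPM in Mutant, against 400 CPM in Control (2.28, 2.10 to 2.47), and was present in 24 and 19 cells. Krtap11-1, also high sulfur, was in every cell at 8530 CPM in Mutant and 4915 CPM in Control (0.80, 0.74 to 0.86), which is short of 2-fold.

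The rarer high glycine-tyrosine genes of chromosome 16 differed most between the libraries in a small number of cells. Krtap16-3 (ENSMUSG00000096534, chr16:88962273-88962873, minus strand) had 0 as its lowest value in both libraries, a median of 1 and a maximum of 1085 UMIs per cell in Mutant, and a median of 0 and a maximum of 59 in Control. Its sum rose to 2877 CPM in Mutant, against 153 CPM in Control (4.23, 3.96 to 4.52). Krtap22-2 (ENSMUSG00000095992, chr16:89010395-89010759, minus strand) was in 15 Mutant cells with up to 454 UMIs and in 4 Control cells with up to 21. It rose to 2321 CPM in Mutant, against 37.5 CPM in Control (5.95, 5.41 to 6.54). Krtap16-3 was found in 17 of 29 Mutant and 9 of 26 Control cells, and both libraries had cells without either gene, so they overlap at the low end and part at the high end. Krtap6-5 rose to 566 CPM in Mutant, against 4.02 CPM in Control, from 385 and 3 UMIs, and 317 of the Mutant UMIs were in 1 cell (7.14, 5.58 to 9.42). The 3 members of subfamily 19 that could be compared were rarer still. Krtap19-9b had 138 UMIs in 4 Mutant cells and 5 UMIs in 3 Control cells (4.92). Krtap19-3 had 73 UMIs in Mutant and 0 in Control, which makes it at least 26.7-fold higher against a floor of 3 counts in the Control class, and Krtap19-5 had 43 and 0, at least 15.7-fold higher.

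**Figure D2:**
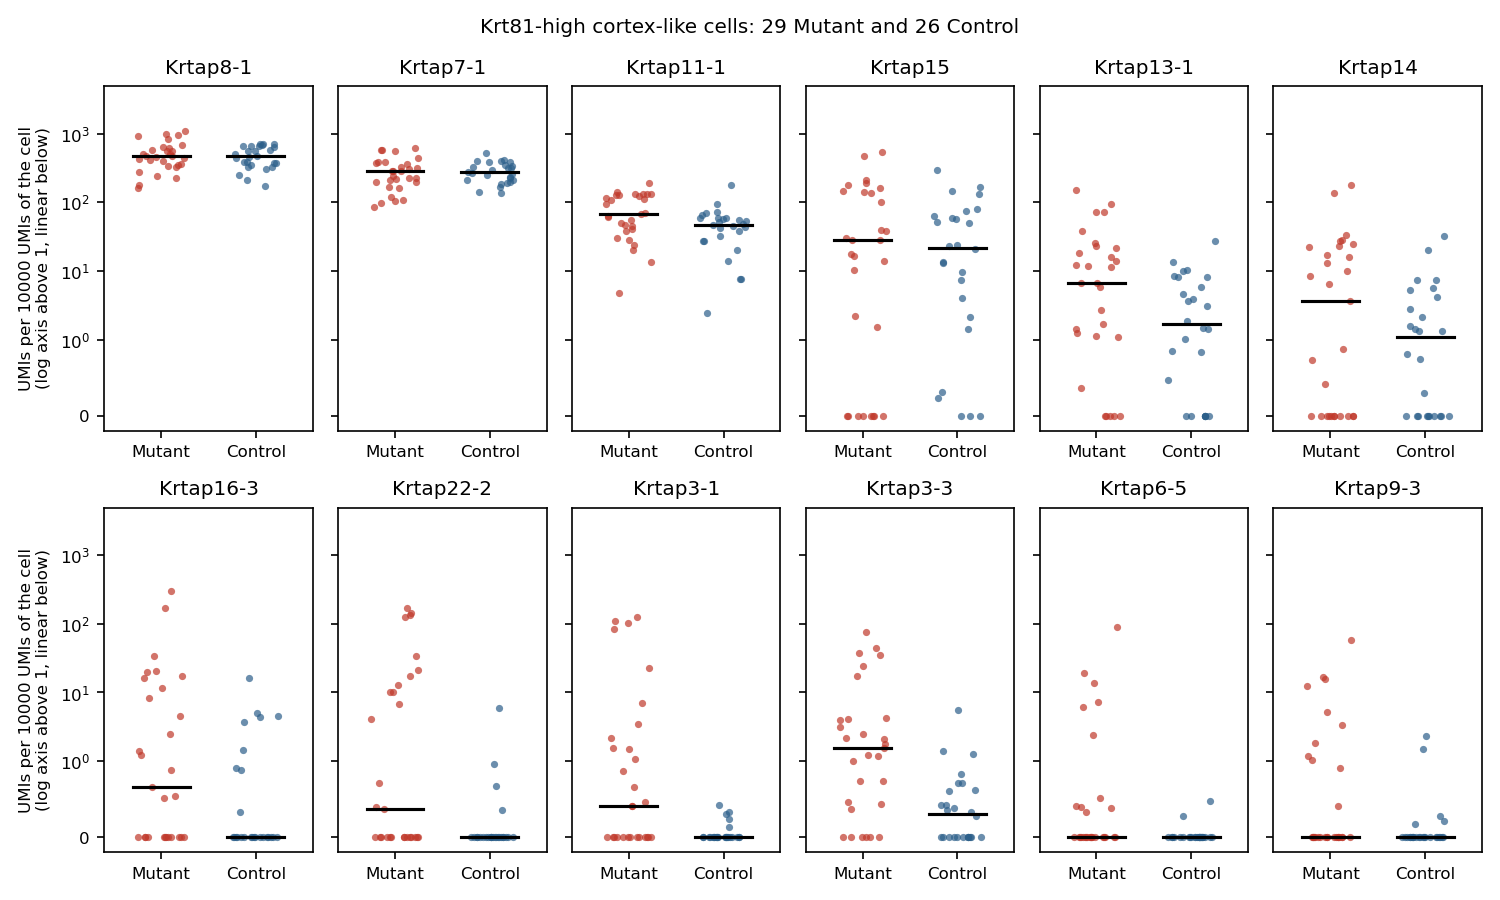
UMIs per 10000 UMIs of the cell for 12 members in the Krt81-high cortex-like class, 1 point per cell, with 29 Mutant cells left and 26 Control cells right and the median as a black bar. Krtap8-1, Krtap7-1 and Krtap11-1 overlap fully, while Krtap3-1 and Krtap22-2 have Mutant cells above all Control cells and many cells of both libraries at 0.

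On chromosome 11 the same pattern held for high sulfur genes and for 1 ultra-high sulfur gene, Krtap9-3. Krtap3-1 (ENSMUSG00000047564, chr11:99566027-99566630, minus strand), a high sulfur gene, was in 16 of 29 Mutant cells with up to 304 UMIs, and in 5 of 26 Control cells with up to 2. It rose to 1461 CPM in Mutant, against 8.04 CPM in Control (7.50, 6.38 to 8.95). Its neighbour Krtap3-3 was more evenly spread, in 23 and 14 cells, and rose to 938 CPM in Mutant, against 67.0 CPM in Control (3.81, 3.39 to 4.25). Krtap3-2, between them, had 50 UMIs in Mutant, 34 of them in 1 cell, and 0 in Control, at least 18.3-fold higher. Of the ultra-high sulfur genes, Krtap9-3 rose to 494 CPM in Mutant, against 6.70 CPM in Control (6.20, 4.97 to 7.84), and 207 of its 336 Mutant UMIs were in 1 cell. Krtap1-5, a high sulfur gene, had 304 UMIs in Mutant, 237 of them in 1 cell, and 4 UMIs in Control (6.38, 5.01 to 8.27). The Control values of Krtap3-1, Krtap9-3 and Krtap1-5 are single UMIs in a few cells, near the detection limit.

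**Figure D3:**
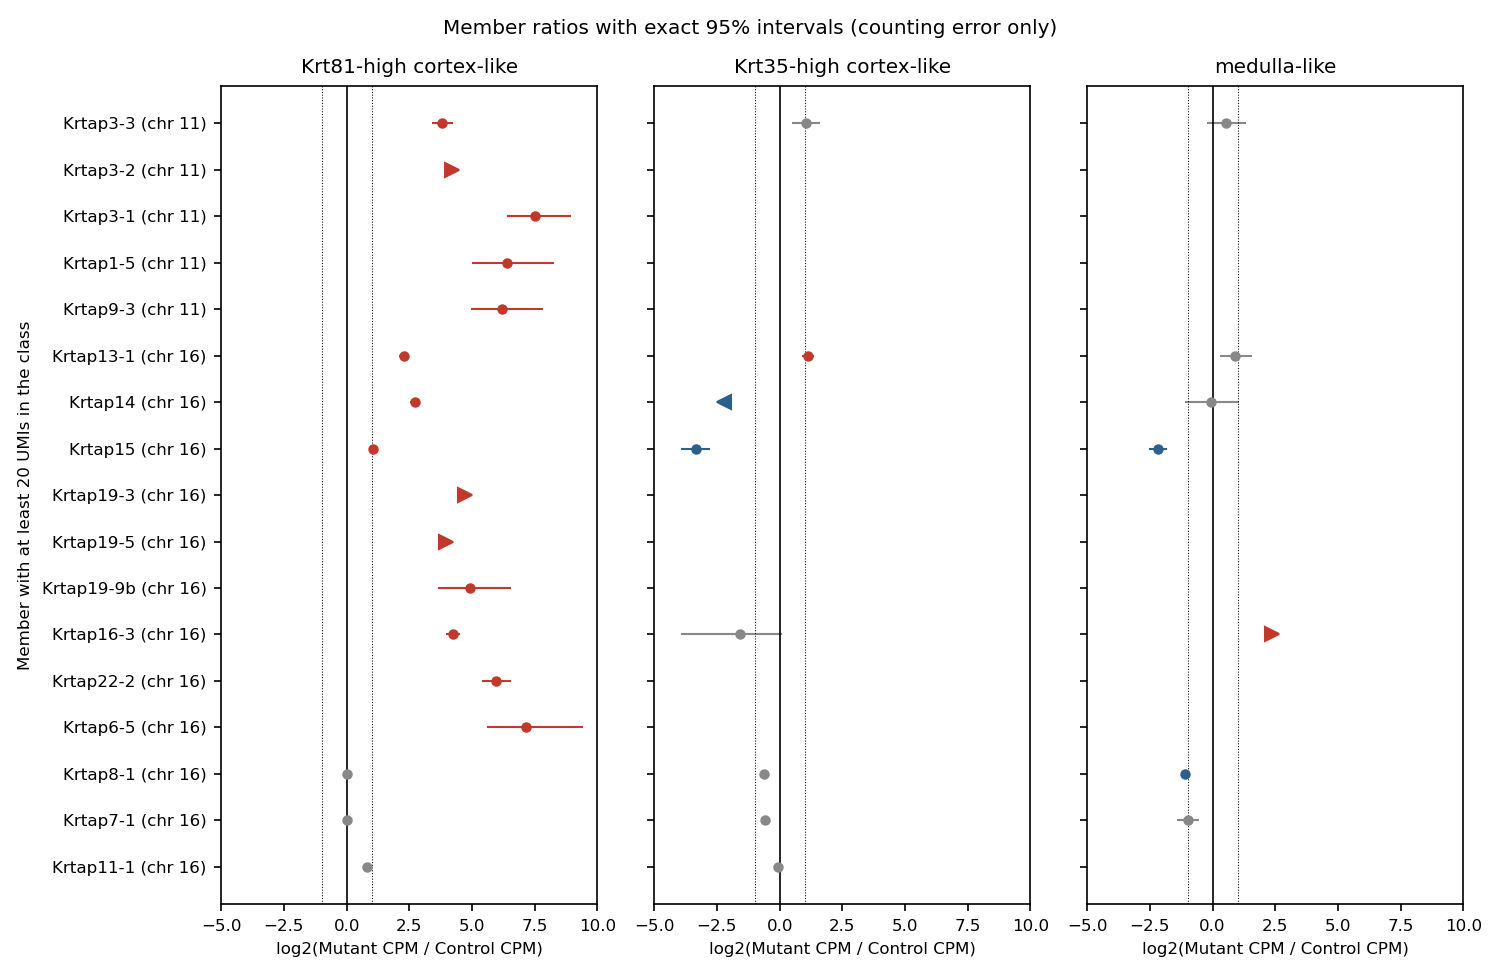
Log2 ratio of Mutant over Control CPM for each member with at least 20 UMIs in the Krt81-high cortex-like, Krt35-high cortex-like and medulla-like classes, with exact 95% intervals, and arrows for lower bounds where 1 library had no UMI. Red marks members that rose, blue members that fell and grey the rest; the red points gather in the Krt81-high panel.

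A few cells carried much of this difference. Without the cell with most UMIs of the member in each library, all 14 still rose. Without the 3 such cells, 9 of 17 did, and Krtap3-2, Krtap1-5, Krtap19-3, Krtap19-5 and Krtap19-9b no longer passed. The 3 Mutant cells with most Krtap UMIs held 33.3% of the Mutant Krtap UMIs of the class, and the 3 such Control cells 27.04%. When every cell was thinned to 1500 UMIs, 7 members rose. Cells thinned to 5000 UMIs held between 2 and 18 different members with a median of 6 in Mutant (27 cells) and between 3 and 9 with a median of 5 in Control (23 cells). Unthinned, the medians were 9 in Mutant and 7 in Control, and 23 members were detected in the class in Mutant against 14 in Control.

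The Mutant cells also reached further along the late keratins. UMIs of the 8 late shaft keratins (Krt31, Krt33a, Krt33b, Krt34, Krt36, Krt81, Krt83 and Krt86) ran from 227 over a median of 786 to 2105 per 10000 in Mutant cells, and from 159 over 507 to 926 in Control cells. Above the highest Control cell lay 10 Mutant cells, and these held 56.4% of the Mutant Krtap UMIs of the class. They held 973 of the 993 Mutant UMIs of Krtap3-1, 1478 of 1578 of Krtap22-2, 320 of 336 of Krtap9-3, all 304 of Krtap1-5, and 378 of 385 of Krtap6-5. Abundant members were divided more evenly, with 49.9% of Krtap8-1 and 50.04% of Krtap7-1 in those 10 cells.

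Within the range of late keratin that both libraries share, the differences were smaller. Among the 19 Mutant cells up to the highest Control value, set against all 26 Control cells, 5 of 11 members compared rose and none fell, against 1.69% and 1.36% of the 3964 genes compared in these cells. These were Krtap22-2 (226 CPM in Mutant and 37.5 CPM in Control, 2.59), Krtap3-1 (45.2 and 8.04 CPM, 2.49), Krtap9-3 (36.2 and 6.70 CPM, 2.43), Krtap16-3 (658 and 153 CPM, 2.11) and Krtap14 (737 and 361 CPM, 1.03). Of these 5, Krtap3-1 (20 Mutant and 6 Control UMIs) and Krtap9-3 (16 and 5) reached 20 UMIs only through Mutant. They could not have been called lower. Krtap15 stood at 5591 CPM in these Mutant cells and 5292 CPM in Control (0.08), and Krtap13-1 at 612 and 400 CPM (0.62). Krtap3-3 stood at 138 CPM in these Mutant cells and 67.0 CPM in Control (1.04), with an interval that reached below 1.5-fold. The summed members were at 75987 CPM in these Mutant cells and 89788 CPM in Control (-0.24), where the whole class gave 0.34. This range was chosen after the values were seen, and 3 of the late keratins rose in Mutant themselves, as given next.

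**Figure D4:**
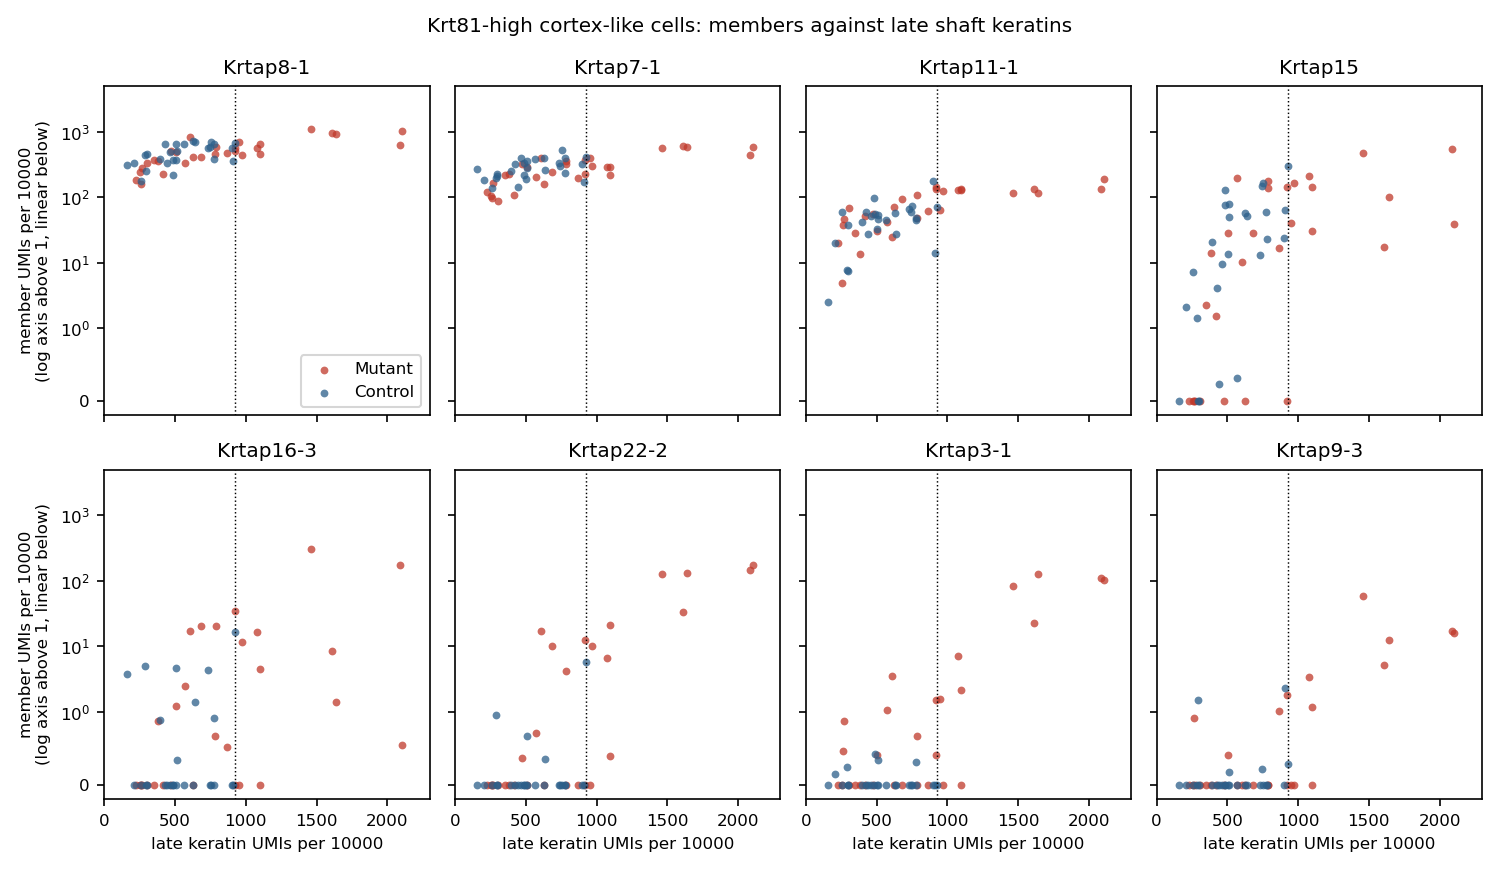
UMIs of 8 members per 10000 against late shaft keratin UMIs per 10000 in each Krt81-high cortex-like cell (29 Mutant in red, 26 Control in blue); the dotted line is the highest Control cell, at 926. Left of the line the colours mix for Krtap8-1, Krtap7-1, Krtap11-1 and Krtap15, and right of it 10 Mutant cells hold the highest values of Krtap22-2, Krtap3-1 and Krtap9-3.

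Other shaft genes moved in the same class. Of 11 hair keratins compared, 4 rose and 1 fell. Krt34, a late cortex keratin, stood at 3365 CPM in Mutant and 243 CPM in Control (3.79), Krt81 at 9757 and 2199 CPM (2.15), Krt86 at 1887 and 475 CPM (1.99) and Krt39 at 33.8 and 5.36 CPM (2.66), while Krt35, an early keratin, fell to 22.1 CPM in Mutant, against 80.4 CPM in Control (-1.87). Of 13 shaft transcription factors 1 rose, Foxq1 (3.01), and 2 fell, Lef1 (-1.95) and Runx1 (-1.11). Of 10 other shaft proteins 1 rose, Psors1c2 (1.21), and 3 fell, Prr9 (-2.65), Selenbp1 (-2.79) and Crym (-3.23). Of 9 inner root sheath genes none rose and 5 fell, and their summed markers stood at 388 CPM in Mutant and 1256 CPM in Control. Hair cuticle markers summed to 21780 CPM in Mutant and 12814 CPM in Control, and red blood cell markers, of which all 5 were detected in each library, to 4739 and 146 CPM, with 1 Mutant cell at 1302 per 10000. The part of these other cell types in the Krtap ratios was not tested.

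Counted against hair keratin, the Krtap genes as a whole were lower in Mutant Krt81-high cells. There were 118 Krtap UMIs per 100 hair keratin UMIs in Mutant and 148 in Control (log2 ratio -0.33, -0.34 to -0.31), and hair keratins stood at 96425 CPM in Mutant and 60798 CPM in Control (0.67). In Krt35-high cells it was 74.5 per 100 in Mutant and 86.0 in Control (-0.21), which turned to 0.18 after thinning, and in medulla-like cells the log2 ratio was -0.33. The other side was found in cuticle-like cells, with 9.32 per 100 in Mutant and 1.83 in Control (2.35, past the size rule), and in matrix or precortex-like cells, with 14.1 in Mutant and 9.06 in Control (0.63). Over the 5 classes pooled the ratio was 0.03.

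In the Krt35-high cells the dominant genes stood lower in Mutant, by less than 2-fold. Of 8 members compared 1 rose and 2 fell, against a background of 1.34% of 7940 genes rising and 1.28% falling, and the median log2 ratio was -0.60, with -0.00 over all genes compared. Krtap8-1 ran from 0 over a median of 11 to 474 UMIs per cell in the 80 Mutant cells and from 0 over 19 to 2560 in the 190 Control cells. It stood at 5670 CPM in Mutant and 8689 CPM in Control (-0.62, -0.66 to -0.57), and Krtap7-1 at 2414 and 3617 CPM (-0.58). Krtap11-1 stood at 536 CPM in Mutant and 555 CPM in Control (-0.05, -0.19 to 0.09). The mean of the per-cell Krtap shares was level between the libraries, with a log2 ratio of 0.0035, where the sums gave -0.57.

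Krtap15 went the other way from the Krt81-high cells. In Krt35-high cells it fell to 29.3 CPM in Mutant, against 295 CPM in Control (-3.33, -3.93 to -2.79), with 28 UMIs in 11 of 80 Mutant cells and 935 UMIs in 43 of 190 Control cells. The highest cells held 10 UMIs in Mutant and 340 in Control, so the libraries part only at the high end, and the ratio was -2.96 without the 3 highest cells of each library. With every cell thinned to 1500 UMIs it was -1.35 and did not pass. Krtap14 had 0 UMIs in Mutant and 46 in Control, 37 of them in 1 cell, which is at least 4.62-fold lower and did not pass without that cell. Krtap13-1 rose to 239 CPM in Mutant, against 108 CPM in Control (1.14, 0.89 to 1.38), but with 121 of its 228 Mutant UMIs in 1 cell, and gave 0.60 without the highest cell of each library. Krtap3-3 was at 47.1 CPM in Mutant and 22.7 CPM in Control (1.05, 0.48 to 1.61) and did not pass, and Krtap16-3 had 3 UMIs in Mutant and 30 in Control (-1.59, -3.95 to 0.10). Melanocyte markers in this class, of which all 8 were detected in each library, summed to 1450 CPM in Mutant and 240 CPM in Control. Inner root sheath markers summed to 341 CPM in Mutant and 1910 CPM in Control and red blood cell markers to 1023 and 3906 CPM, and the part of these in the ratios was not tested.

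The cuticle-like cells had members of their own. Among the hair shaft and inner root sheath-like classes, Krtap24-1, Krtap26-1 and Krtap17-1 were highest in this class in both libraries. Over all clusters of at least 50 cells this did not hold for Krtap17-1 in Control, which stood at 10.0 CPM in the cuticle-like class and at up to 25.4 CPM in a cluster with outer root sheath markers. Krtap24-1 (ENSMUSG00000050239, chr16:88610705-88612279, minus strand), a high sulfur gene, was in 18 of 96 Mutant cells with up to 18 UMIs and in 18 of 102 Control cells with up to 11. Its levels were 43.8 CPM in Mutant and 41.5 CPM in Control (0.08, -0.51 to 0.65), and 7.41% of its Mutant and 3.33% of its Control UMIs lay outside the shaft classes. Among the 7 members compared in this class its ratio lay nearest to 0.

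Of 7 members compared in the cuticle-like class 4 rose and none fell, against 1.19% of 7034 genes rising and 1.75% falling, with a median log2 ratio of 2.11 over these members and -0.14 over all genes compared. The count rested on single cells: without the highest cell of each library only Krtap17-1 rose. Of the 4, Krtap17-1, Krtap26-1 and Krtap7-1 also reached the minimum count for a comparison only through Mutant. This favours a call in that direction, and these members raise the median. Only Krtap8-1 among the 4 met the minimum in Control alone. Krtap17-1 (ENSMUSG00000078252, chr11:99993234-99993994, minus strand), an ultra-high sulfur gene, had 348 UMIs in 15 Mutant cells and 14 UMIs in 4 Control cells, at 318 and 10.0 CPM (4.98, 4.22 to 5.87). A single Mutant cell held 253 of its UMIs, and the ratio without the highest cells was 3.79. Krtap26-1, a high sulfur gene, had 25 UMIs in Mutant, 23 of them in 1 cell, and 7 in Control, 6 of them in 1 cell (2.19). Krtap8-1 had 99 UMIs in Mutant and 24 in Control (2.39) and Krtap7-1 60 and 17 (2.17), with 74 and 45 of the Mutant UMIs in a single cell each, and their ratios without the highest cells were 0.73 and 0.37. Krtap13-1 stood at 40.2 CPM in Mutant and 23.6 CPM in Control (0.76) and Krtap3-3 at 31.0 and 37.3 CPM (-0.26), neither past 2-fold. The maxima came from different cells. The 253 UMIs of Krtap17-1 were in a cell with 279 Krtap UMIs in all, 39.7% of the Mutant Krtap UMIs of the class, the 74 and 45 UMIs of Krtap8-1 and Krtap7-1 were in another, and a further cell held the maxima of both Krtap26-1 and Krtap24-1.

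In medulla-like cells Krtap8-1 and Krtap15 fell in Mutant. Of 7 members compared 1 rose and 2 fell, against 5.96% of 8294 genes rising and 5.88% falling, so large ratios were common in this class. Krtap8-1 fell to 272 CPM in Mutant, against 591 CPM in Control (-1.12, -1.28 to -0.96), with a median of 1 UMI per cell in both libraries and maxima of 66 and 58, and did not pass after thinning. Krtap15 fell to 43.0 CPM in Mutant, against 195 CPM in Control (-2.18, -2.55 to -1.82), and was found in 15.2% of 277 Mutant cells and 44.1% of 145 Control cells. Krtap15 thus fell both here and in the Krt35-high cells. Krtap16-3 had 26 UMIs in Mutant and 0 in Control, at least 5.16-fold higher, but 22 lay in 1 cell. Krtap7-1 stood at 39.5 CPM in Mutant and 78.0 CPM in Control (-0.98, -1.43 to -0.53) and Krtap13-1 at 43.5 and 23.2 CPM (0.90, 0.28 to 1.57). Krtap14 and Krtap3-3 had ratios of -0.05 and 0.53 with intervals that held 0. Markers of other cell types differed in this class as well. Inner root sheath markers, of which all 10 were detected in each library, summed to 1782 CPM in Mutant and 6614 CPM in Control, and red blood cell markers to 730 and 8734 CPM. Companion layer markers summed to 4905 CPM in Mutant and 3016 CPM in Control and outer root sheath markers to 4422 and 2537 CPM, and the part of these in the Krtap ratios was not tested. The medulla markers themselves summed to 2058 CPM in Mutant and 2026 CPM in Control. That is less than the companion layer and outer root sheath markers in both libraries, and less than the inner root sheath markers in Control. The name came from levels relative to other clusters. At a higher clustering resolution the class shrank to 223 Mutant and 17 Control cells, and Krtap15 and Krtap13-1 then turned to 0.26 and -1.66.

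In matrix or precortex-like cells none of 9 members rose and 1 fell, against 2.52% of 10710 genes rising and 1.92% falling. Krtap3-2, a high sulfur gene, fell to 1.97 CPM in Mutant, against 9.28 CPM in Control (-2.24, -3.15 to -1.40), with 16 UMIs in 13 of 845 Mutant cells and 49 UMIs in 21 of 486 Control cells, and at most 2 and 11 UMIs per cell. It had no UMI in Mutant lymphocytes and stood at 0.477 CPM in Control lymphocytes. Krtap3-3 stood at 26.3 CPM in Mutant and 40.9 CPM in Control (-0.63) and Krtap13-1 at 28.2 and 43.9 CPM (-0.64). These lie above the lymphocyte levels of 4.49 and 4.77 CPM for Krtap3-3 and 5.39 and 5.25 CPM for Krtap13-1. Krtap8-1, at 41.5 CPM in Mutant and 78.6 CPM in Control, did not exceed its level of 80.4 and 82.5 CPM in lymphocytes. Matrix cells were deeper, with medians of 9138 and 9490 UMIs against 1929 and 2257 in lymphocytes, so CPM does not compare counts per cell. The class was made of 4 clusters, of which different ones held most cells: 339 of the 845 Mutant cells were in a cluster with 59 Control cells, and 235 of the 486 Control cells in one with 180 Mutant cells.

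In the inner root sheath-like cells, which surround the shaft and are not part of it, 1 of 8 members rose and 1 fell, against 2.09% of 11037 genes rising and 1.61% falling. Krtap7-1 fell to 32.8 CPM in Mutant, against 77.8 CPM in Control (-1.25), and Krtap17-1 rose to 8.82 CPM in Mutant, against 2.31 CPM in Control (1.94), with 10 of its 21 Mutant UMIs in 1 cell, and did not pass without the highest cells. Krtap7-1 was at 41.8 and 54.2 CPM in lymphocytes, so its Mutant value lies below that level in CPM, in cells that were deeper (medians of 12566 and 15953 UMIs).

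Grouped by late keratin and not by cluster, the cells of the 5 shaft classes showed where along this scale the libraries parted. In cells with no late keratin UMI (764 Mutant and 403 Control) the summed members stood at 199 CPM in Mutant and 336 CPM in Control (-0.75). Between 0 and 10 per 10000 (477 and 419 cells) they stood at 372 and 440 CPM (-0.24), and between 10 and 100 (42 and 70 cells) at 8209 and 7336 CPM (0.16). Above 100 (44 and 57 cells) they stood at 95552 CPM in Mutant and 60302 CPM in Control (0.66). All Krt81-high cells lay in this top range, as 29 of its 44 Mutant and 26 of its 57 Control cells. It has no upper limit, and 10 Mutant cells lay above the highest Control cell at 926. Its ratios thus carry the make-up of the range as well as the level per cell. The order is that of the ranges in both libraries, with the Mutant sum lower at the low end and higher at the high end. Near the cut at 100, up to 20% below or 25% above it, lay 4 Mutant and 9 Control cells.

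The members differed in where they first appeared on this scale. Krtap8-1 went up by range in both libraries, with 91.8, 134, 5234 and 44052 CPM in Mutant and 202, 211, 4928 and 35446 CPM in Control. Krtap3-1 had 999 UMIs in Mutant and 7 in Control in the top range (8.10, 7.05 to 9.42), and Krtap22-2 1578 and 34 (6.48). Krtap16-3 had 25 UMIs in Mutant and 1 in Control between 10 and 100, but 22 of the 25 were in the single medulla-like cell named above. Krtap15 fell in Mutant cells without late keratin, to 11.3 CPM against 53.7 CPM in Control (-2.25), had a ratio of 0.19 between 10 and 100, where 26 of 27 Mutant UMIs were in 1 medulla-like cell, and rose above 100, to 8736 CPM in Mutant against 2928 CPM in Control (1.58). Krtap17-1 rose in the lowest ranges, to 11.9 CPM in Mutant against 2.49 CPM in Control in cells without late keratin and to 69.2 against 6.83 CPM between 0 and 10, where the single cuticle-like cell with 253 UMIs lay. Krtap11-1, short of 2-fold by cluster, passed above 100 with 7178 CPM in Mutant and 3005 CPM in Control (1.26), in the range whose make-up differed between the libraries.

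**Figure D5:**
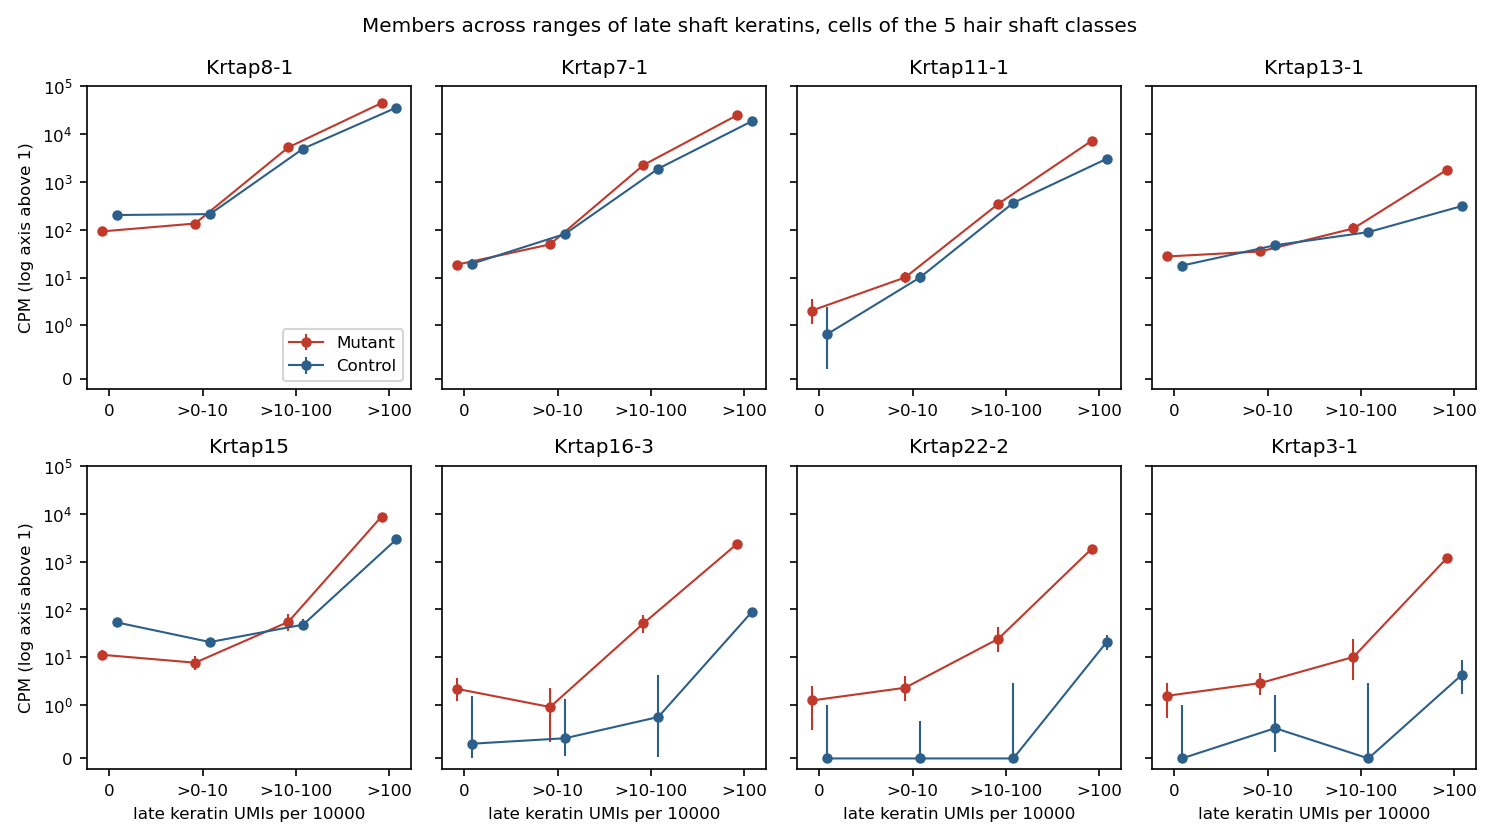
CPM of 8 members with exact Poisson 95% intervals in cells of the 5 hair shaft classes grouped by late shaft keratin UMIs per 10000 (Mutant red, Control blue). Krtap8-1 reaches 44052 CPM in Mutant and 35446 CPM in Control in the top range, and Krtap3-1 and Krtap22-2 separate the libraries in the top range.

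The share of cells with a Krtap UMI gave a flatter picture than the levels. With every cell thinned to 1500 UMIs, all 29 Mutant and all 26 Control Krt81-high cells held at least 1. In Krt35-high cells the share was 79.5% in Mutant (62 of 78 cells, 68.8% to 87.8%, exact Clopper-Pearson) and 70.7% in Control (133 of 188 cells, 63.7% to 77.1%). In medulla-like cells it was 40.5% in Mutant (34.6% to 46.6%) and 54.9% in Control (46.4% to 63.3%), with intervals that overlap slightly. Cuticle-like cells had 25.8% in Mutant and 14.9% in Control, and matrix or precortex-like cells 15.4% and 20.1%. Lymphocytes had 21.9% in Mutant and 21.8% in Control, so at this depth the matrix shares and the Control cuticle share did not exceed the lymphocyte share. That holds for the family as a whole and not for each member, as the values of Krtap3-3, Krtap13-1 and Krtap24-1 show. With at least 3 UMIs the lymphocyte shares were 0.232% and 0.758%, the medulla shares 9.49% in Mutant and 18.3% in Control, and the cuticle shares 5.38% in Mutant and 0 of 101 cells in Control. The matrix or precortex shares at this cut were 1.10% in Mutant and 1.45% in Control, above the lymphocyte shares but with intervals that overlap theirs. Unthinned, with medians of 6539 and 8111 UMIs per cell, the medulla share with at least 1 UMI was 77.3% in Mutant and 86.2% in Control. Unthinned matrix or precortex-like cells had 52.7% and 59.7%, and lymphocytes, at lower depth, 28.7% and 33.2%.

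Among the hair shaft and inner root sheath-like classes the family peaked mostly in the cortex in both libraries. Of 27 members with at least 20 UMIs in kept cells, 19 were highest in Krt81-high cells in Mutant and 14 in Control. Several members had many of their UMIs outside the 5 shaft classes, where clusters of the hair lineage that got no name are counted too. Outside the 5 shaft classes lay 42.6% of the Mutant and 92.6% of the Control UMIs of Krtap17-1, 24.1% and 69.4% of those of Krtap3-3, and 69.2% and 75.5% of those of Krtap3-2. In Control, Krtap3-3 had 215 UMIs in an unnamed hair lineage cluster. Krtap17-1 had 229 and 226 Control UMIs in clusters with outer root sheath markers. The 5 members of subfamily 4, ultra-high sulfur genes, had no UMI in Krt81-high cells of either library. The strongest of them, Krtap4-16, had 48 UMIs in Mutant and 15 in Control over all barcodes. Krtap2-4 (10 and 11 UMIs over all barcodes), Krtap12-1 (11 and 3), and 10 others never reached 20 UMIs in a shaft class, so 12 members were not compared, and no difference could be assessed for them at this depth. In all, 20 members were compared in at least 1 shaft class, 18 rose in at least 1 and 4 fell in at least 1, against 8.19% and 7.63% of the 10957 genes compared in at least 1. With the 5 shaft classes pooled, 13 of 20 rose and none fell, against 4.63% and 2.87% of 11792 genes, and over all kept cells 15 of 27 rose and none fell, against 3.55% and 7.17% of 17567 genes. The pooled counts carry the make-up of each library as well as the level per class. Of the 13, Krtap3-1, Krtap1-5, Krtap9-3, Krtap6-5, Krtap26-1 and the compared members of subfamily 19 reached the minimum count only through Mutant. With so few Control UMIs they could not have been called lower. The 18 that rose in at least 1 class likewise include members compared there only through Mutant.

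Across 51 clusters with both libraries pooled, the 5 other genes whose level (log2 of CPM + 1) was most like that of the summed members were Krt87 (Pearson r 0.951), Krt33a (0.900), Gprc5d (0.889), Krt83 (0.888) and Krt31 (0.882). Of these, 4 are hair keratin genes and Gprc5d encodes an orphan receptor of the hair cortex. Clusters share 2 libraries and differ in depth, so the coefficients are descriptions.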

How the data were processed

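Per the labels' protocols, single cells of dorsal skin epidermis were captured with 10x Genomics 3' v3 chemistry. The authors deposited unnormalised UMI counts for each barcode. Per the file headers, the counts came from Cell Ranger 3.0.2. The submitters' processing notes also list Seurat 3.0.0 and 3.1.0 and the builds GRCm38 and mm10. The Mutant matrix held 13411 barcodes with 97817173 UMIs and the Control matrix 16973 barcodes with 140880809 UMIs, and no column went unused. Barcodes below 500 genes or above 15% mitochondrial UMIs were dropped. Scrublet in scanpy 1.11.5 marked doublets at a score above 0.2 in both libraries, a value chosen after the automatic threshold had called no Control cell, and 412 Mutant (3.60%) and 516 Control cells (3.65%) were removed. Without Krtap and cell cycle genes, 2000 variable genes, 30 principal components (20 for the hair lineage), 15 neighbours and Leiden clustering at resolution 1 (leidenalg 0.10.2) gave clusters, which were named "X-like" from marker sets.

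Levels are sums of UMIs over the cells of a class in 1 library, scaled to the total of those cells (CPM). The log2 ratio sets Mutant over Control, with an exact conditional 95% interval, and levels carry exact Poisson intervals (scipy 1.17.1). A gene was compared from 20 UMIs over both libraries in the class. A gene with few UMIs in 1 library could thus enter only through the other, which favours a call in that direction. The background genes met the same rule. The ratio and call were tested on simulated data with known changes. In each class the 8 members with most UMIs, the strongest of each subfamily and the 5 largest ratios in each direction are named. Krtap16-3 was moved by its codons (at least 40% glycine and tyrosine) after these were seen. The members and gene lists were chosen with earlier results of these data known. Alternatives covered filters, doublets, resolution, a marker gate, thinning, background subtraction, scaling, the minimum count, the size rule and cells left out.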

Additional observations from a re-analysis of the deposited data

Results flagged for a closer look

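Of the members, 4 had ratios in opposite directions in different classes of the same libraries, and the difference between classes was not tested. Krtap15 had log2 ratios of 1.04 in Krt81-high cells, -3.33 in Krt35-high cells and -2.18 in medulla-like cells. None of the 3 passed under every alternative: after thinning they were 0.84 and -1.35 in the cortex-like classes, among Mutant cells up to the highest Control late keratin level it was 0.08 in Krt81-high cells, and at the higher resolution it was 0.26 in medulla-like cells. Krtap14 had 2.72 in Krt81-high cells and was at least 4.62-fold lower in Krt35-high cells, where 37 of 46 Control UMIs were in 1 cell. Krtap3-2 was at least 18.3-fold higher in Krt81-high cells and had -2.24 in matrix or precortex-like cells. Krtap8-1 had 2.39 in cuticle-like cells, mostly from 1 Mutant cell, and -1.12 in medulla-like cells.

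Genes without a Krtap symbol that lie inside the same clusters also had UMIs in Krt81-high cells. Gm10229 on chromosome 16 had 1616 UMIs in 13 Mutant cells and 0 in Control. Gm11565 on chromosome 11 had 401 UMIs in Mutant and 9 in Control. Gm11562 had 55 UMIs in Mutant and 2 in Control, 2310061N02Rik 41 and 0, and Gm10228 36 and 0. In the other direction, 2310079G19Rik had 1 UMI in Mutant and 21 in Control.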

How the results depend on the processing

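No paired analysis was possible because each group is 1 pooled matrix and its columns carry no replicate numbers; for the same reason no replicate was left out. Depth limits the comparison to members with at least 20 UMIs in a class. The cause of the moves below was not tested. Of the alternatives to a summed level, count or share, 237 kept direction and side, 39 counts or values moved, 5 newly passed the size rule and 2 no longer did. Of those to a single member's ratio, 591 were the same, 18 newly passed, 32 no longer passed, 17 moved and 2 reversed.

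Members with at least 100 UMIs numbered 19. In Krt81-high cells 14 members rose, and 7 did after thinning, 9 without the 3 highest cells and 5 in Mutant cells up to the highest Control late keratin level, where the summed log2 ratio was -0.24. Over the 5 classes pooled 13 rose, and 8 after thinning or without the 3 highest cells. In Krt35-high cells 1 rose; 2 did by the 2-fold rule alone or after subtracting the T cell or NK cell level, 3 with no minimum, and 0 after thinning or without the highest or 3 highest cells; 2 fell, and 1 did from 50 UMIs or without the highest or 3 highest cells, and 0 after thinning. In cuticle-like cells 4 rose, 2 after subtraction and 1 after thinning or without the highest or 3 highest cells. In medulla-like cells 1 rose, 2 with no minimum and 0 after subtraction, from 50 UMIs, at the higher resolution, after thinning or without the 3 highest cells; 2 fell, and 1 after thinning. In matrix or precortex-like cells 0 rose, and 1 by the 2-fold rule alone, at the higher resolution, with no minimum or without the highest or 3 highest cells; 1 fell, and 2 without the highest or 3 highest cells.

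The pooled summed log2 ratio of -0.46 became 0.088 at the lower resolution, where no cluster was named medulla-like, and 0.61 over cells with at least 5 hair keratin UMIs. The Krt35-high value of -0.57 became 0.0035 as a mean of per-cell shares. The cuticle value of 1.98 became 1.20 after thinning and 0.70 without the 3 highest cells. The medulla value of -0.93 became -1.27 after subtraction, -1.38 at the higher resolution and -1.05 without the 3 highest cells. Per keratin, Krt35-high cells gave 0.18 after thinning, and medulla-like cells -1.37 at the higher resolution and -1.92 without the 3 highest cells. Krtap15 and Krtap13-1 in medulla-like cells reversed to 0.26 and -1.66 at the higher resolution. The median gene had a log2 ratio of -0.25 in Krt81-high and -0.14 in cuticle-like cells, a shift smaller than any called ratio there.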

Other observations

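Levels in lymphocytes differed by member, and the source of these UMIs was not tested. In lymphocytes Krtap8-1 stood at 80.4 CPM in Mutant and 82.5 CPM in Control and Krtap7-1 at 41.8 and 54.2 CPM, while Krtap15 stood at 16.2 and 9.85 CPM and Krtap11-1 at 9.89 and 8.90 CPM. Krtap16-3 stood there at 4.49 CPM in Mutant and 2.07 CPM in Control, and Krtap17-1 at 0.899 and 0 CPM. The 59 barcodes shared by the matrices held 55 Krtap UMIs in Mutant and 37 in Control.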
